A study of Caenorhabditis elegans with 7 samples.

Results

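The genes described here are 32 of the 5315 named genes that gave a value on all 7 arrays of a heat stress time course in Caenorhabditis elegans. By its mean ratio, each stood above its 0 h value at 2 and 4 h at 30 °C and lower than that early mean at 10 and 12 h. Members were chosen on the measured ratios by 2 thresholds. The mean of the 2 and 4 h arrays had to lie at least 1 log2 unit above the 0 h array, a difference called E below. The mean of the 10 and 12 h arrays had to lie at least 0.7 log2 units below the mean of the 2 and 4 h arrays, a difference called L. In all, 36 genes passed both thresholds, and 4 of these (the HSP70 genes F44E5.4 and F44E5.5, with Y46H3A.4 and F21C10.1) were set aside by the rule, as were 8 further genes that did not pass.

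The 7 groups were adult animals at 0, 2, 4, 6, 8, 10 and 12 h after a move to 30 °C, with 1 array each, and the 0 h group is the unheated baseline. All groups were of strain CF512, had reached adulthood at 25 °C, and were therefore sterile, baseline included. The labels name only the strain. As background, its sterility comes from temperature-sensitive mutations in fem-1 and in the gene first named fer-15, so the response of a fertile germline and its embryos is not sampled. RNA of whole animals was hybridised on 2-colour spotted arrays against a common reference RNA named HS1, of unstated make-up. A value is a log2 ratio to that reference after each array was centred on its median. It gives no absolute level, and levels of different genes are not compared. The sources do not state the direction of the ratio. Worm RNA over reference is taken as likely because the heat-inducible F44E5.4 and F44E5.5 had their lowest ratio at 0 h. With the sign turned, the same 32 genes would be lowered early and then recover, and the 30 genes that now fell early and recovered by the same thresholds would take their place.

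In animal cells, heat unfolds proteins and releases the transcription factor HSF-1, which switches on genes for chaperones such as HSP70 and the small heat shock proteins. The chaperones then bind back to HSF-1 and damp its activity, and many heat-induced transcripts are transient even while heat persists. Other transcripts respond to heat through stress, immune and metabolic pathways with courses of their own. This is background and was not measured here.

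Arrays gave 16143 to 16972 probe values each, with a spread over probes (SD) that was widest at 0 h (0.634) and 0.497 to 0.585 elsewhere. The lowest correlation between arrays over probes was -0.21, between 0 h and 12 h. None of 20 marker genes of intestine, germline, sperm, muscle, hypodermis and neurons had a named probe, so the tissue make-up could not be checked, and in whole animals fewer cells of a type and less RNA per cell cannot be told apart. With 1 array per time no value has a replicate error. As a loose gauge of array-to-array spread, values at 8 h minus those at 6 h had a standard deviation of 0.442 over the 5315 genes, which holds real change as well as error.

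The early rise of the 32 genes ranged from 1.01 (F58F6.5) to 4.87 (F19B2.5), with a median of 1.48, or 2.79-fold if the logs are of base 2. Over all 5315 genes the median of E was 0.02. All genes, here and below, means these named genes. As 11300 of 19200 probes have no named gene, shares among them are not genome-wide. The named genes cannot be taken as a random part either. They held no chaperone, nuclear receptor, collagen or histone by symbol and none of the 20 marker genes. The late decline ranged from -0.70 (F19B2.6) to -2.38 (F19B2.5), with a median of -1.01, against 0.01 over all genes. These values chose the genes and carry no test. Of all genes, 162 (3.05%) passed the early threshold, 388 (7.3%) the late one and 36 (0.677%) both. The other genes with an early rise split into 94 that changed by less than 0.7 afterwards and 32 that rose by at least 0.7 more. The median ratio of the 32 genes was -0.86 at 0 h, 0.76 at 2 h, 0.61 at 4 h, 0.19 at 6 h, -0.04 at 8 h, -0.44 at 10 h and -0.52 at 12 h. Those of the other 5283 genes stayed between -0.01 and 0.02 on every array. The highest ratio fell at 2 h for 19 members, at 4 h for 12 and at 6 h for 1, and the lowest fell at 0 h for 23.

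**Figure D1:**
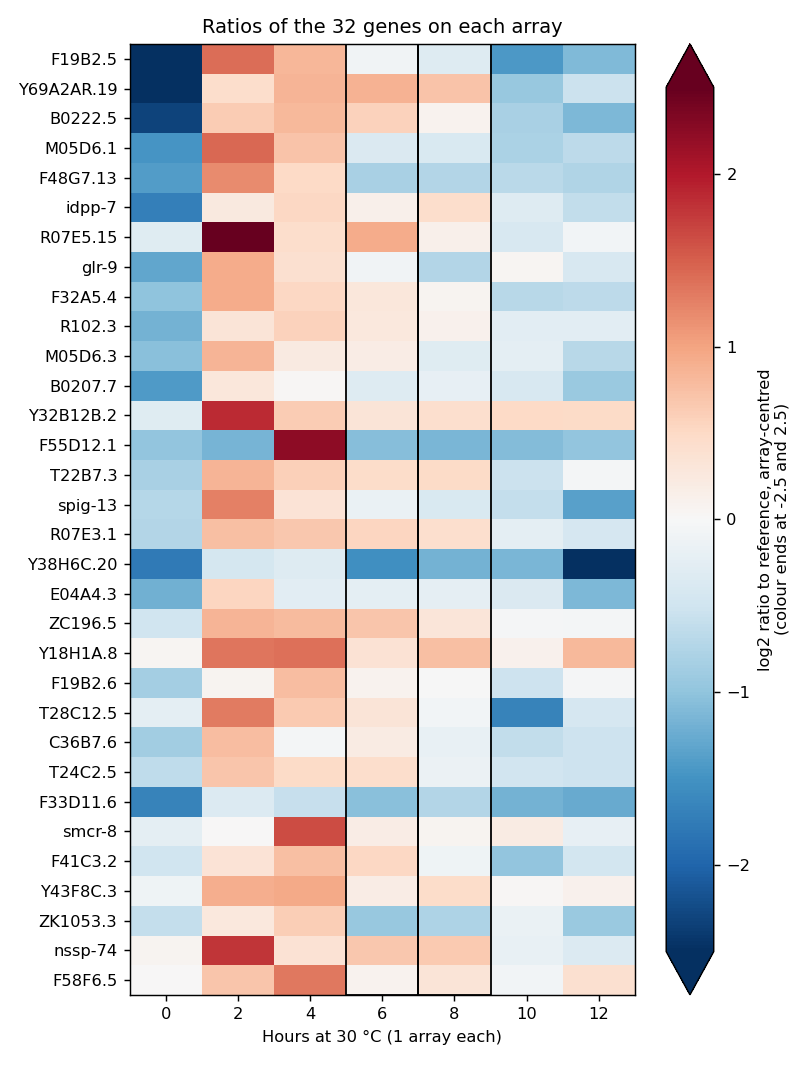
Array-centred log2 ratio to the common reference (colour) of the 32 genes (rows, from the largest early rise at the top) on the 7 arrays (columns, hours at 30 °C, 1 array each). Boxes mark the 6 h and 8 h arrays, whose ratios the thresholds did not use, and 23 of the rows have their lowest ratio at 0 h.

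The thresholds cut through a continuum. The genes just inside the early threshold were F58F6.5 (1.01), nssp-74 (1.01), ZK1053.3 (1.02), Y43F8C.3 (1.04) and F41C3.2 (E of 1.04), and those just outside were T22C8.6 (0.99), F49F1.4 (0.98), dbd-19 (0.98), F10D7.3 (0.93) and VF13D12L.3 (0.93). For the late threshold, F19B2.6 (-0.70), R102.3 (-0.71), Y32B12B.2 (-0.76), F33D11.6 (-0.76) and smcr-8 (-0.81) stood just inside. Just outside stood Y53F4B.26 (-0.67), Y73F8A.15 (-0.65), iscu-1 (-0.64), Y51B9A.8 (-0.62) and F16B12.1 (-0.61). Y53F4B.26 had an early rise of 2.61, larger than that of all but 3 members, and missed membership by the late threshold alone.

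**Figure D2:**
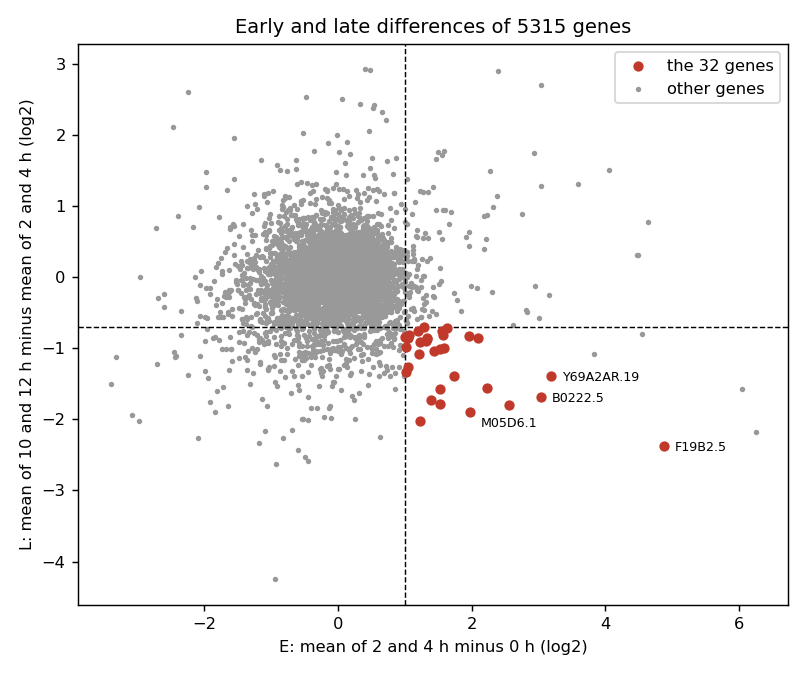
Early difference E (horizontal, log2) against late difference L (vertical, log2) of the 32 genes (red) and the other genes with values on all 7 arrays (grey). Dashed lines are the thresholds of 1 and -0.7, grey points in the lower right field are the 4 genes set aside, and F19B2.5 lies farthest from both thresholds among the 32 genes.

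The largest course was that of F19B2.5. Its log2 ratios were -3.75 at 0 h, 1.41 at 2 h, 0.82 at 4 h, -0.10 at 6 h, -0.32 at 8 h, -1.43 at 10 h and -1.09 at 12 h. After an early rise of 4.87 it fell back by 2.38, yet at 10 and 12 h it was still 2.33 and 2.66 above its own baseline. In the courses that follow, the values from 0 to 12 h stand for the arrays at 0, 2, 4, 6, 8, 10 and 12 h in that order. Y69A2AR.19 had -2.54, 0.44, 0.85, 0.87, 0.72, -0.95 and -0.53 from 0 to 12 h. It is the one member whose highest ratio came at 6 h, and it kept its early level through 8 h before it dropped by 1.67 between 8 and 10 h. B0222.5 had -2.32, 0.63, 0.80, 0.58, 0.09, -0.82 and -1.12 from 0 to 12 h, so it was high through 6 h and declined on each later array. M05D6.1 had -1.48, 1.43, 0.71, -0.36, -0.38, -0.80 and -0.66 from 0 to 12 h, and F48G7.13 had -1.39, 1.18, 0.51, -0.82, -0.73, -0.68 and -0.76 from 0 to 12 h. Both stood highest at 2 h, were lower at 4 h, and from 6 h on differed by no more than 0.44 (M05D6.1) and 0.14 (F48G7.13) between arrays. The tables used here name these 5 genes by sequence name only and give no function.

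Y69A2AR.19 is carried by 3 probes, which repeat the measurement within each array. Over the 7 arrays in order of time the first gave -2.06, 0.90, 0.81, 0.59, 0.67, -0.62 and -0.43, the second -2.67, 0.27, 0.86, 0.82, 0.94, -0.85 and -0.06 and the third -2.89, 0.15, 0.89, 1.20, 0.54, -1.39 and -1.11. All 3 were lowest at 0 h and fell by over 1 log2 unit between 8 and 10 h. They differed in the middle, where the third was highest at 6 h and the second at 8 h, and their early rises were 2.92, 3.24 and 3.41. Y43F8C.3 also has 3 probes, of which 1 had no value on any array. Its other 2 gave early rises of 0.58 and 1.497 and late declines of -0.92 and -0.80, so only the second passed both thresholds singly.

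The 5 members with a gene symbol came from different families. smcr-8, the orthologue of human SMCR8, a partner of C9ORF72 in autophagy and lysosome regulation, had -0.25, 0.00, 1.63, 0.19, 0.07, 0.20 and -0.20 from 0 to 12 h. Its rise was on the 4 h array, and the next highest, at 10 h, was 0.45 above the baseline. glr-9, named in the class of ionotropic glutamate receptors, had -1.30, 0.92, 0.39, -0.09, -0.74, 0.06 and -0.39 from 0 to 12 h. It was high at 2 and 4 h, lowest after that at 8 h, and at 10 h it again stood 1.36 above its baseline. idpp-7, of a class of intrinsically disordered proteins of the pharynx, had -1.71, 0.25, 0.52, 0.12, 0.45, -0.32 and -0.62 from 0 to 12 h. Its 8 h value was close to the 4 h value, and the decline showed at 10 and 12 h. spig-13 had -0.72, 1.26, 0.35, -0.17, -0.38, -0.60 and -1.35 from 0 to 12 h, a fall on every array after 2 h that ended below its baseline. nssp-74 had 0.06, 1.78, 0.37, 0.67, 0.65, -0.18 and -0.34 from 0 to 12 h, with its highest value at 2 h, similar values at 6 and 8 h, and late values below its baseline.

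The other genes of these name classes were looked at because of the members, after the members' values were seen. An E of 1 or more, which 3.05% of all genes had, was met by 0 of 12 other idpp genes, 0 of 33 other nssp genes and 0 of 9 other spig genes with values on all 7 arrays, too few genes to set against that share. Their median E was -0.51 for idpp, -0.27 for nssp and -0.19 for spig genes. An E of -1 or less was met by 8 of the 33 nssp genes, against 5.64% of all genes. The late decline was met by 3 of the 9 spig genes, against 7.3% of all genes, namely spig-1 (-1.32), spig-10 (-1.29) and spig-9 (-0.84). The 3 began above 0 at 0 h and reached -1.92, -1.42 and -0.81 at 12 h. The nssp and spig classes were picked after the members' values were seen, so nothing is read from these counts either. The 9 spig genes are also few. The only other glr gene measured, glr-10, had an E of -0.54.

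Members formed 2 pairs of direct neighbours in the WBcel235 gene order, which was used only for names and order. Only protein-coding genes and pseudogenes were counted in that order, here and below. F19B2.6, next to F19B2.5, had -0.86, 0.07, 0.78, 0.09, -0.001, -0.53 and -0.03 from 0 to 12 h. Both neighbours were lowest at 0 h and were above that on each heated array, but F19B2.5 was highest at 2 h and F19B2.6 at 4 h, with an early rise of 4.87 for F19B2.5 and 1.28 for F19B2.6. M05D6.3, next to M05D6.1, had -1.04, 0.85, 0.22, 0.18, -0.31, -0.24 and -0.69 from 0 to 12 h. Both were lowest at 0 h and highest at 2 h. Against its own baseline, M05D6.1 was 2.91 up at 2 h, 1.12 up at 6 h and 0.82 up at 12 h, and M05D6.3 was 1.90 up at 2 h, 1.23 up at 6 h and 0.36 up at 12 h. Whether probes of neighbours share sequence was not tested. Of 19 further genes that flank a member and had values on all 7 arrays, 0 had an early rise of 1 or more (3.05% of all genes had one) and 2 had a late decline of 0.7 or more (7.3% of all genes). The 2 were ctsa-3.1 (-0.82), beside F32A5.4, and R07E3.7 (-0.82), beside R07E3.1. The median E of the 19 was 0.02, and the highest were F33D11.2 (0.75), beside F33D11.6, and F48G7.4 (0.71), beside F48G7.13.

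**Figure D3:**
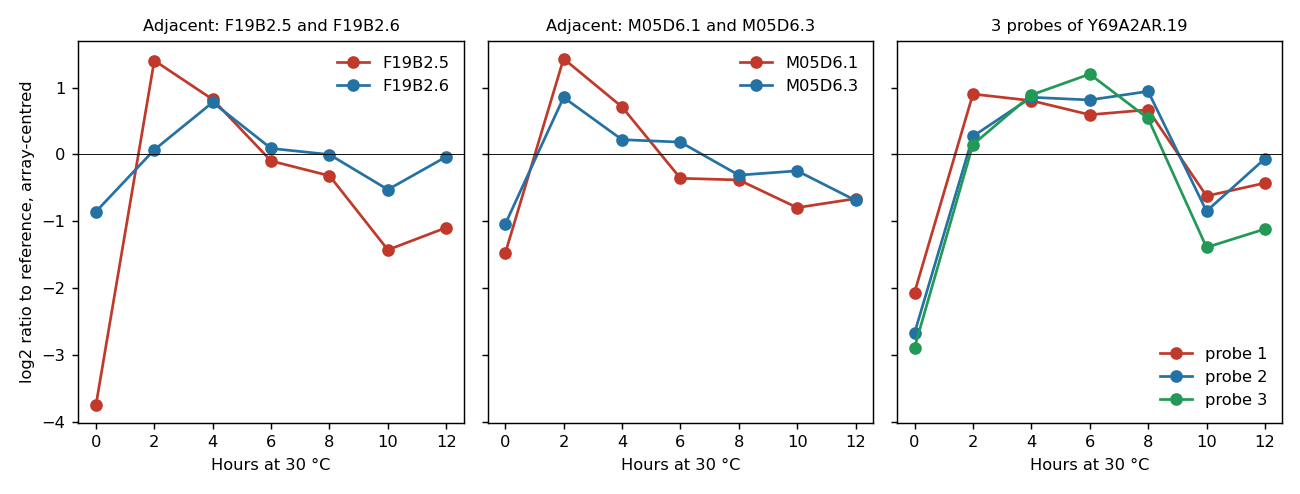
Array-centred log2 ratio to the reference (vertical) over hours at 30 °C (horizontal) for the neighbours F19B2.5 and F19B2.6 (left), the neighbours M05D6.1 and M05D6.3 (middle) and the 3 probes of Y69A2AR.19 (right), 1 array per point. All lines are lowest at 0 h, and the 3 probes stay up until 8 h.

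Other members lie near genes set aside by the rule. B0222.5 is separated by 4 genes from F21C10.1, which had -3.19, 0.15, 1.14, 0.46, -0.39, -0.89 and 0.003 from 0 to 12 h. F21C10.1 was highest at 4 h like B0222.5, but after that it was lowest at 10 h, and B0222.5 at 12 h. Y38H6C.20 is separated by 13 genes from Y38H6C.7 and by 12 from Y38H6C.8. Its ratios were -1.77, -0.43, -0.33, -1.53, -1.18, -1.14 and -3.09 from 0 to 12 h, a rise at 2 and 4 h of which 0.24 was left at 6 h, and a last value far below the others. At 12 h the ratio was 0.70 for Y38H6C.7 and 0.58 for Y38H6C.8. The course of the HSP70 gene F44E5.4, for reference, was -4.98, 0.91, 1.64, 0.80, 0.10, -1.19 and -0.61 from 0 to 12 h, with the 0 h value at the lower limit of the file. No member had a value at a limit of the file.

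An early mean can rest on 1 array. At 2 and at 4 h singly, 20 of the 32 genes stood at least 1 above the baseline (1.84% of all genes did), while 6 did so at 2 h only and 6 at 4 h only. Likewise 24 lay at least 0.7 below the early mean at both 10 and 12 h (4.25% of all genes did), 3 at 10 h only and 5 at 12 h only. Both conditions were met by 17 genes. All arrays in this paragraph were used by the rule, so nothing is read from these shares.

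The clearest case of a single array was F55D12.1, with -0.99, -1.16, 2.23, -1.06, -1.14, -1.08 and -0.98 from 0 to 12 h. Its 4 h value lay 3.22 above the next highest, and the other heated arrays were at most 0.16 from the baseline. R07E5.15 had -0.31, 2.87, 0.45, 0.94, 0.13, -0.39 and -0.08 from 0 to 12 h, with its highest value at 2 h and a difference of -2.42 between 4 h and 2 h. Y32B12B.2 had -0.30, 1.87, 0.63, 0.31, 0.43, 0.51 and 0.49 from 0 to 12 h. From 4 h on it lay between 0.31 and 0.63, lowest at 6 h, and without the 2 h array it did not meet the rule. The pseudogene T28C12.5 had -0.25, 1.30, 0.65, 0.32, -0.07, -1.67 and -0.41 from 0 to 12 h, with its lowest value at 10 h. C36B7.6 had -0.86, 0.77, -0.06, 0.21, -0.19, -0.61 and -0.51 from 0 to 12 h. The pseudogene E04A4.3 had -1.19, 0.55, -0.27, -0.24, -0.23, -0.36 and -1.12 from 0 to 12 h. In both, the 4 h array was already 0.81 to 0.83 below 2 h, and E04A4.3 then stayed level until 10 h. The genes past 1 at 2 h only were above their baseline at 4 h too. The 4 h difference was 0.93 in Y32B12B.2 and E04A4.3, 0.90 in T28C12.5 and 0.805 in C36B7.6. It was 0.76 in R07E5.15 and 0.31 in nssp-74.

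Among the genes raised at 4 h only, F58F6.5 had 0.004, 0.70, 1.32, 0.09, 0.33, -0.07 and 0.41 from 0 to 12 h. F41C3.2 had -0.50, 0.34, 0.74, 0.52, -0.11, -0.99 and -0.45 from 0 to 12 h. ZK1053.3 had -0.59, 0.26, 0.61, -0.95, -0.78, -0.17 and -0.92 from 0 to 12 h. All 3 were above their baseline at 2 h too, F58F6.5 by 0.70 and F41C3.2 and ZK1053.3 by 0.84 each. At 6 h F41C3.2 was still within 0.02 of its early mean, whereas ZK1053.3 was already 0.36 below its baseline. With the 2 h array left out, 22 of the 32 genes still met the rule. Without 4 h it was 25, without 10 h 29 and without 12 h 27, and 14 met it each time. The 0 h array, from which E is measured, was not left out. These 14 were F19B2.5, Y69A2AR.19, B0222.5, M05D6.1, F48G7.13, idpp-7, F32A5.4, T22B7.3, spig-13, R07E3.1, Y38H6C.20, ZC196.5, T24C2.5 and Y43F8C.3. Without the 4 h array the number of genes that met the rule rose to 69, genes set aside not counted.

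**Figure D4:**
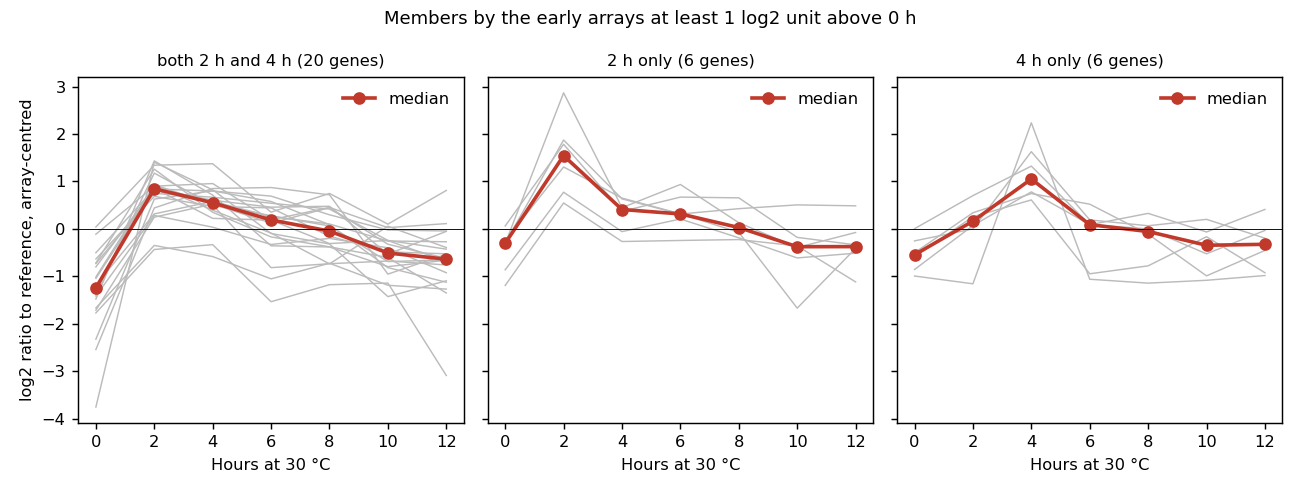
Array-centred log2 ratio to the reference (vertical) over hours at 30 °C (horizontal) of each member (grey lines, 1 array per time) and their median (red), split by whether both early arrays (20 genes), the 2 h array alone (6) or the 4 h array alone (6) stood at least 1 log2 unit above 0 h. The median in the middle panel is -0.30 at 0 h, 1.54 at 2 h and 0.41 at 4 h. In the right panel it is -0.55 at 0 h, 0.16 at 2 h and 1.05 at 4 h, so the other early array is above 0 h in both.

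The choice of members asked for a value on the 6 h and 8 h arrays but did not use its size. These ratios are thus the measurements that the thresholds did not use, with 1 array each and no test. At 6 h the ratios of the 32 genes ran from -1.54 to 0.94 with a median of 0.19, against -0.01 in the other genes. Of the 32, 21 were above 0 at 6 h (48.7% of all genes were), 7 were at 0.5 or more (7.28% of all genes) and 5 at -0.5 or less (12.6% of all genes). At 8 h the median was -0.04, against -0.004 in the other genes. There 15 were above 0 (49.5% of all genes), 3 at 0.5 or more (10.3%) and 6 at -0.5 or less (18.8% of members, 13.1% of all genes). All arrays share 1 reference RNA, so a gene's ratios on different arrays are not independent of each other.

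The value at 8 h minus that at 6 h is free of that reference. It was below 0 for 20 of the 32 genes (62.5%, against 49.6% of all genes), and its median was -0.11, against 0.005 in the other genes. At -0.5 or less there were 4 of 32 (12.5%, against 9.6% of all genes), R07E5.15 (-0.81), glr-9 (-0.65), F41C3.2 (-0.63) and T24C2.5 (-0.60). With each array centred, that share lies near the background. At 0.5 or more there were 0 of 32 (10.9% of all genes). At -0.5 or less, quantile normalization gave 7 members (21.9%, against 11.2% of all genes). That count was 6 without centring (18.8%, against 10.3%) and 6 with equal median absolute deviations (18.8%, against 10.5%). Among the 20 genes raised on both early arrays the count at -0.5 or less was 2. For scale, the median of L, which the rule used, was -1.01.

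**Figure D5:**
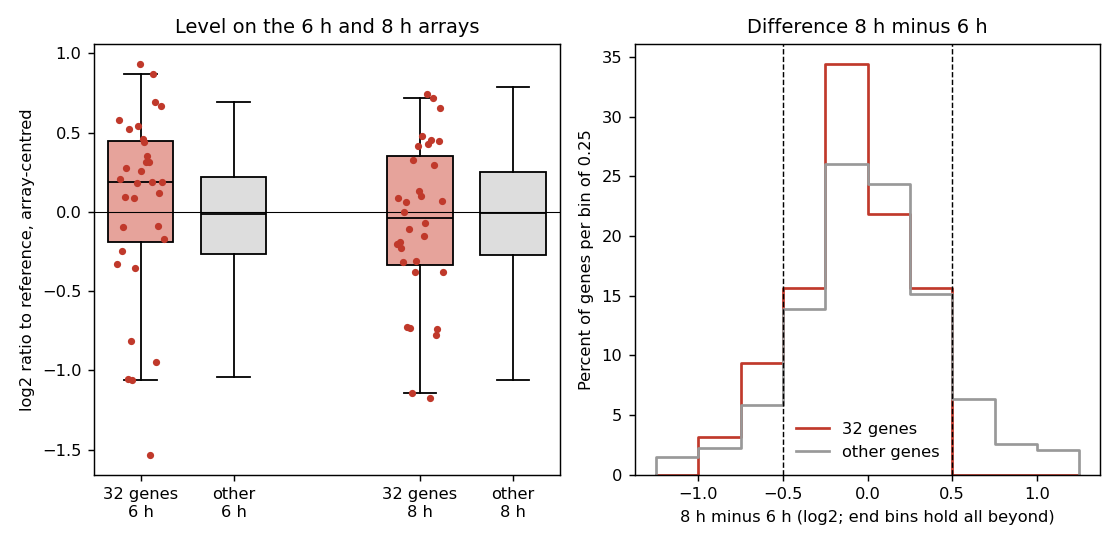
Left, array-centred log2 ratio at 6 h and 8 h of the 32 genes (red boxes with a point per gene) and of the other genes (grey boxes), with the median, the quartiles and whiskers over the middle 95% of genes, beyond which other genes are not drawn. Right, share of genes by the difference 8 h minus 6 h, with dashed lines at -0.5 and 0.5: 4 of the 32 genes lie at or below -0.5 and 0 at or above 0.5.

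Placed against each gene's own early and late means, the 6 and 8 h values fell into 4 kinds. These means were used by the rule, and the split is a description. Both values lay nearer the early mean in 9 genes, Y69A2AR.19, B0222.5, idpp-7, F32A5.4, R102.3, T22B7.3, R07E3.1, E04A4.3 and nssp-74. Their median was 0.46 at 6 h and 0.42 at 8 h but -0.36 at 10 h. T22B7.3 had -0.80, 0.85, 0.60, 0.46, 0.48, -0.53 and -0.05 from 0 to 12 h, and R07E3.1 had -0.73, 0.75, 0.67, 0.54, 0.42, -0.24 and -0.43 from 0 to 12 h. Over 2 to 8 h T22B7.3 varied by 0.39 and R07E3.1 by 0.33, and between 8 and 10 h T22B7.3 fell by 1.01 and R07E3.1 by 0.66. F32A5.4 had -1.01, 0.93, 0.51, 0.28, 0.06, -0.69 and -0.66 from 0 to 12 h. R102.3 had -1.18, 0.32, 0.58, 0.26, 0.10, -0.26 and -0.27 from 0 to 12 h. F32A5.4 was lower on each array from 4 to 10 h than on the one before, and R102.3 on each from 6 to 12 h.

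The 6 h value lay nearer the early mean and the 8 h value nearer the late one in 8 genes, R07E5.15, M05D6.3, ZC196.5, F19B2.6, T28C12.5, C36B7.6, T24C2.5 and F41C3.2. ZC196.5 had -0.50, 0.84, 0.80, 0.69, 0.30, -0.02 and -0.04 from 0 to 12 h. T24C2.5 had -0.63, 0.69, 0.47, 0.44, -0.15, -0.48 and -0.53 from 0 to 12 h. Both were level from 4 to 6 h, and T24C2.5 then fell by 0.60 and ZC196.5 by 0.39 at 8 h. Both values lay nearer the late mean in 12 genes, F19B2.5, M05D6.1, F48G7.13, glr-9, Y32B12B.2, F55D12.1, spig-13, Y18H1A.8, smcr-8, Y43F8C.3, ZK1053.3 and F58F6.5. F48G7.13 was the extreme, 1.66 below its early mean at 6 h. Y18H1A.8 had 0.04, 1.34, 1.37, 0.35, 0.75, 0.10 and 0.81 from 0 to 12 h. It was high at 2 and 4 h and moved up and down from 6 h on, ending at 0.81. Y43F8C.3 had -0.11, 0.90, 0.96, 0.19, 0.45, 0.03 and 0.11 from 0 to 12 h, with its 6 h value close to its late values.

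In 3 genes the order was turned, with 8 h nearer the early mean than 6 h. They were Y38H6C.20, B0207.7 with -1.42, 0.28, 0.04, -0.33, -0.20, -0.40 and -0.92 from 0 to 12 h, and F33D11.6 with -1.67, -0.35, -0.58, -1.05, -0.72, -1.19 and -1.27 from 0 to 12 h. F33D11.6 and Y38H6C.20 were below 0 on every array, so what rose early was a low ratio to the reference becoming less low.

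The place of the members relative to their own 0 h value is also a description, since the rule used the 0, 10 and 12 h arrays and asked for a high early mean and a decline. Nothing is read from the shares in this paragraph, those at 6 and 8 h included, because 0 h is subtracted in each. The mean of 10 and 12 h lay within 0.5 of the 0 h value in 18 genes (59.2% of all genes), at least 0.5 above it in 13 (19.5%) and at least 0.5 below it in 1 (21.3%), the pseudogene T28C12.5 (-0.79). The median share of the early rise still present was 66.2% at 6 h, 53.95% at 8 h and 29.7% for the mean of 10 and 12 h. The largest late shares were those of idpp-7 (59.2%), glr-9 (57.9%), Y69A2AR.19 (56.4%), R102.3 (56.4%), F19B2.5 (51.2%) and Y32B12B.2 (51.1%). At 6 h 17 members were at least 1 above the baseline (4.48% of all genes), at 8 h 10 (5.49%), at 10 h 6 (5.46%) and at 12 h 4 (7.43%). The 4 at 12 h were F19B2.5 (2.66), Y69A2AR.19 (2.01), B0222.5 (1.20) and idpp-7 (1.09). Late values below the baseline on both arrays were seen in T28C12.5 and nssp-74.

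Features that the rule did not use were also counted. The reference table lists 30 of the 32 genes as protein-coding and 2 as pseudogenes (6.25%, against 5.89% of all genes). Their 36 probes lay in 19 of the 32 print blocks of the array, with at most 4 in a block. None belonged to gene lists formed by the start of the gene symbol alone, which can hold genes of other kinds. These lists were PALS proteins (18 measured), chemoreceptors (23), innate immunity (3), proteasome (2), germline small RNA (2), ubiquitin ligase adaptors (1) and detoxification (1). With 0.677% of all genes past both thresholds, 0 of those 50 genes is no result about the lists. An early rise of 1 or more was met by 1 of the 50 (3.05% of all genes), the PALS gene pals-26. Chaperones, nuclear receptors, collagens and histones had no gene under these symbols on a named probe. Promoter and protein sequences were not used here.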

How the data were processed

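The 7 arrays each compare RNA of whole adult animals with a common reference. The values deposited by the authors are log2 ratios, 1 for each probe on each array. Base 2 is an assumption from their range, which stops at -5 and 5. How the scans were corrected and normalized, and which channel is on top, is not stated. The deposited column medians lay between -0.02 and 0.06, so the authors may have centred each array. Platform annotation pairs 7900 of 19200 probes with 1 gene each and leaves 11300 unnamed. They stand for 7534 genes, 316 with more than 1 probe. Current names came from the WBcel235 gene table.

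Each array was centred on its median, probes of a gene were averaged, and 5315 genes with a value on all 7 arrays were kept. Members were those with E of at least 1 and L of at most -0.7, less 12 genes set aside. The members and lists were chosen with earlier results of these data known. The rule used 5 of the 7 arrays, and each time has 1 array, so no significance test between times was made and no p-value is given. A difference of 0.5 between the 6 h and 8 h arrays was taken as the fold used there. All members could be named, with values on every array for those with the largest E or lowest L, a gene symbol, a neighbouring member or a place near a threshold. The selection code was tested on simulated data with known members before use. Alternatives were no centring, quantile normalization, equal median absolute deviations, single probes, each rule array left out, other thresholds and values on 5 arrays only. The number of arrays limits the precision, and signal over background is unknown. Computation used Python 3.11.15, numpy 2.4.6, pandas 2.3.3 and matplotlib 3.10.9.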

Additional observations from a re-analysis of the deposited data

How the results depend on the processing

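No paired analysis was possible because a time is 1 array. With 32 genes meeting the rule as reported, leaving out one of the 2, 4, 10 and 12 h arrays in turn gave 33 to 69, and 22 to 29 of the 32 stayed in. The 69 came without the 4 h array, where E rests on the 2 h array alone. Thresholds of 1.5 and -1 gave 11 genes, by construction all among the 32, and thresholds of 0.8 and -0.5 gave 67. Values asked for on the 0, 2, 4, 10 and 12 h arrays only gave 33 genes, the 32 included. Without centring, with quantile normalization, with equal median absolute deviations and with single probes, 32 to 37 genes met the rule, among them 30 or 31 of the 32. Members with 8 h minus 6 h at or below -0.5 numbered 7 with quantile normalization and 2 among the 20 genes raised on both early arrays, against 4 as reported, and the cause was not tested. The median of that difference stayed between -0.14 and -0.08 in these 5 alternatives. Restricting to both early arrays and blanking the values at -5 and 5 were alternatives chosen after seeing the data, and blanking gave a count of 32. The planned promoter motif counts were not run because promoter sequences were not used here.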
